A study of Mus musculus with 12 samples.

Results

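Ly6c1, Ly6c2, Vcan, F13a1, Plac8, Ace and Hp are 7 genes grouped here as transcripts of Ly6C-high monocytes, and they were followed in mouse bone marrow cultures given indole-3-propionic acid (IPA), a tryptophan product of gut bacteria. The genes were chosen by symbol, and each symbol matched 1 row of a count table of 54532 genes. All 7 were among the 14894 genes that were tested, which had over 0.5 CPM (read counts scaled to a common library size) in 2 or more of the 12 libraries.

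Ly6C-high monocytes leave the bone marrow through the chemokine receptor CCR2, enter inflamed tissue and tumours, and can mature there into macrophages or dendritic cells or, in the blood, into Ly6C-low monocytes that patrol vessels. The marker that names them is a small protein held on the cell surface by a lipid anchor and encoded by a pair of adjacent genes, of which Ly6c2 is the main form in monocytes. The other genes encode a matrix proteoglycan (Vcan), a subunit of a clotting transglutaminase (F13a1), an intracellular cysteine-rich protein (Plac8), a peptidase that makes angiotensin II (Ace) and the plasma protein that binds free haemoglobin (Hp). None of these transcripts belongs to Ly6C-high monocytes alone, since Ace is also known from Ly6C-low monocytes, neutrophils and liver make Hp, myeloid progenitors and some lymphoid cells make Plac8, and endothelium makes Ace and Ly6c1.

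Marrow of wild-type (WT) C57BL/6 mice was cultured unsorted in medium with GM-CSF and IL-6, the cytokines that drive the formation of suppressive myeloid cells, and harvested at day 5. All groups received both cytokines, so no group shows uncultured marrow. The vehicle group received DMSO, and the other groups received 10 µM or 50 µM IPA, with 4 libraries in each group. The labels have the medium and IPA renewed at day 3, whereas the study's methods give a change of medium every 2 days. The labels do not say whether the libraries came from separate mice or cultures, so the p-values measure the spread between these samples, which may be technical. The libraries held 20451312 to 28038612 counts, and no pair of libraries within a group agreed within sampling noise.

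Both Ly6C genes lie on the minus strand of chromosome 15 in GRCm38, Ly6c1 at chr15:75044018-75048830 and Ly6c2 at chr15:75108158-75111970, with 59327 bases between them. The coding sequences, each of 396 bases in the GENCODE annotation, are 97.7% identical and differ at 9 positions, of which 6 fall in the first 150 bases. Those bases are given here in lower case because they decide how well a read can be assigned to 1 of the genes, and the capitals mark the positions at which the genes differ.
Ly6c1: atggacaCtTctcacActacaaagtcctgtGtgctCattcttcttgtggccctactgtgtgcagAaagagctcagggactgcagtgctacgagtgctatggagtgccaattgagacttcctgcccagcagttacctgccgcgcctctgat
Ly6c2: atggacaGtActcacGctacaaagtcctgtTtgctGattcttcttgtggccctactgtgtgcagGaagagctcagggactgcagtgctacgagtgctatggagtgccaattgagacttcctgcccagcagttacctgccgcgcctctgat
Reads from the long stretches of lower case fit both genes. Of the 100-base words in the protein-coding Ly6c2 transcripts, 14.9% also occur in Ly6c1, and 6.5% of the Ly6c1 words occur in Ly6c2, so the split of reads between the pair is uncertain.

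The remaining genes lie apart from each other. Vcan spans chr13:89655312-89742509 and F13a1 chr13:36867178-37050244, both on the minus strand, and Plac8 spans chr5:100553725-100572245 and Hp chr8:109575128-109579172, also on the minus strand. Ace spans chr11:105967945-105989964 on the plus strand. The genes that overlap Ace, F13a1 or Vcan lie on the opposite strand and reached at most 58 counts in any library, the count of Gm4117, which overlaps Vcan outside its exons.

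Promoter windows from RefSeq (GRCm38.p6), which run from upstream of the annotated start to just past it, were listed for 6 of the 7 genes, and none was listed for Hp. Where several windows were listed for a gene, the first was taken, here and for all genes. These windows were searched on both strands for a PU.1-type ETS motif (GAGGAAGT), a C/EBP motif (TTGCNNAA) and an IRF-type motif of paired GAAA blocks with any 2 bases between them, the binding letters of factor families that drive myeloid genes. No match of 1 motif overlapped a match of another. The windows of the Ly6C pair and of F13a1 and Ace, the genes with the largest fold changes at 50 µM, are shown with motif matches in capitals.
Ly6c1 at chr15:75048788-75049087 (minus strand): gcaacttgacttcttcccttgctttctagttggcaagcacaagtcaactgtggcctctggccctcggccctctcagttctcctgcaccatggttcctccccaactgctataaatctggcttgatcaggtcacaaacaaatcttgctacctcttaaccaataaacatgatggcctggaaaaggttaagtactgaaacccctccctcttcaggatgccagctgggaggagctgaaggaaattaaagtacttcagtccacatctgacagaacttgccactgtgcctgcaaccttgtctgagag
Ly6c2 at chr15:75111922-75112221 (minus strand): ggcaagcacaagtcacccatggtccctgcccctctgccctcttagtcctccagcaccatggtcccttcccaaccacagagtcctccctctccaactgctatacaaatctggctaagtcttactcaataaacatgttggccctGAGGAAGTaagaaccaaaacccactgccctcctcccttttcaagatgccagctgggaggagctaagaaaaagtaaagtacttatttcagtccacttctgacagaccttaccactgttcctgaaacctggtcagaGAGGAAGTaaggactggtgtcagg
F13a1 at chr13:37050195-37050494 (minus strand): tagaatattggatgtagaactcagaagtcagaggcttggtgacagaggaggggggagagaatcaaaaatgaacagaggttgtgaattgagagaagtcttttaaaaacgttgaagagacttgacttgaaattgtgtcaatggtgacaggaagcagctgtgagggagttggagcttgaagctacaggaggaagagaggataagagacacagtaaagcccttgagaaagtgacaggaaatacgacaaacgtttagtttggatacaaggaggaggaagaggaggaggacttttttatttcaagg
Ace at chr11:105967698-105967997 (plus strand): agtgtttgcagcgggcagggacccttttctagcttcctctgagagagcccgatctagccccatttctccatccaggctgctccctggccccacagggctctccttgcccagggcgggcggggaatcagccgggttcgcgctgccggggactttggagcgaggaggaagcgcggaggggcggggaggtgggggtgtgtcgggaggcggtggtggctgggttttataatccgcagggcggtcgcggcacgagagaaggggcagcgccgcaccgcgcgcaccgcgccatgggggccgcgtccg
The Ly6c2 window held GAGGAAGT at positions -108 and 26 from the start, and none of the 3 motifs was found in the first-listed windows of the other 5 genes. Among 27025 windows of the same length, 3.28% held GAGGAAGT, 10.75% held TTGCNNAA and 3.49% held the IRF-type motif. A match describes letters in the window and was not tested as a binding site.

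In the vehicle cultures, the level per exon length ran from Hp, at 512 CPM per kb ± 54.5 (SD, n = 4), through Ly6c2 at 212 ± 38.3, Plac8 at 135 ± 27.9, Vcan at 27.2 ± 1.28, F13a1 at 20 ± 11.1 and Ly6c1 at 1.95 ± 0.496, down to Ace at 0.365 ± 0.13. Within the vehicle group the library ranges of neighbours in this order did not overlap, Ly6c2 at 175 to 254 CPM per kb being close above Plac8 at 110 to 170, with 1 exception. Vcan at 25.8 to 28.9 CPM per kb lay inside the range of F13a1 at 9.88 to 31.6, so the order of this pair was not resolved. The length of each gene was the union of all its annotated exons, 2740 bases for Ly6c2. The protein-coding Ly6c2 transcripts held only 817 different 50-base words, so they cover less than that union. The order therefore holds for this length only, and whether Hp exceeds Ly6c2 per transcript length is not settled. Hp, Ly6c2 and Plac8 were well expressed, Ace was scarce, and nearly all reads of the Ly6C pair were assigned to Ly6c2.

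**Figure D1:**
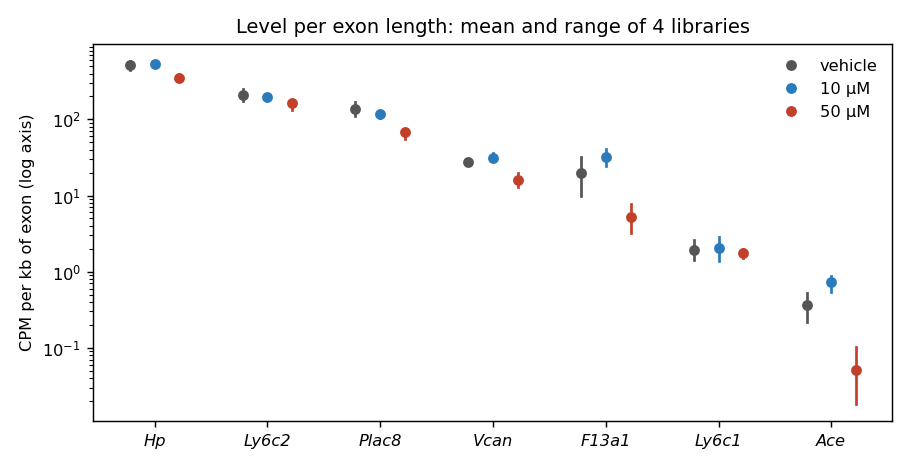
Mean (points) and range (lines) of the level of each gene in 4 libraries per group, in CPM per kb of exon on a log axis, ordered by the vehicle mean. The length is the union of all annotated exons of a gene, on which the order depends. Hp leads at 512 CPM per kb in vehicle, Ace is lowest at 0.365, and Ace and F13a1 show the widest gap between the 50 µM mean and the means of the other groups.

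At 10 µM IPA, none of the 7 genes passed the test against vehicle (edgeR quasi-likelihood test, Benjamini-Hochberg adjusted over 14894 genes), in a comparison that called 61 genes or 0.41% of those tested, and in which 1308 genes had an unadjusted p under 0.05. The count of called genes in that comparison was unstable, at 4 to 122 when 1 library was left out, 250 with DESeq2 and 3 with the replicate block. Of the genes in the other lists, C1qb, Chil3, F3, Fn1, Gpnmb, Hmox1 and Mrc1 were called in it. All 7 also passed with DESeq2 and limma-voom, none passed with the replicate block, and each passed in 1 to 6 of the 8 edgeR fits that left out 1 library. The study describes reduced viability of such cultures at the higher dose, and no value here measures viability. At 50 µM IPA, Vcan, F13a1, Plac8, Ace and Hp fell against vehicle and Ly6c1 and Ly6c2 did not pass. That makes 5 of 7 called, all lower, where 13.5% of all tested genes were called in either direction and 6.5% were called lower. The 7 genes were chosen with earlier results of these data known, so these shares describe the set and do not test it. Against 10 µM, 6 of 7 were lower at 50 µM, Ly6c2 being added, where 15.4% of tested genes were called in either direction and 7.85% lower. All 50 µM libraries lay below all vehicle libraries for 5 of the 7 genes and below all 10 µM libraries for 6 of 7. Of all tested genes, 20% had groups that did not overlap between 50 µM and vehicle, 10.5% with 50 µM below, and 20.3% between 50 µM and 10 µM, 10.9% with 50 µM below. The median log2 fold change of the 7 genes was 0.06 at 10 µM and -0.74 at 50 µM against vehicle, and -0.78 at 50 µM against 10 µM, while the medians over all tested genes were -0.01, 0.01 and 0.01. Each group serves in 2 of the 3 comparisons, so these are not independent of each other. In these unsorted cultures, fewer cells of a type and less RNA per cell cannot be told apart.

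**Figure D2:**
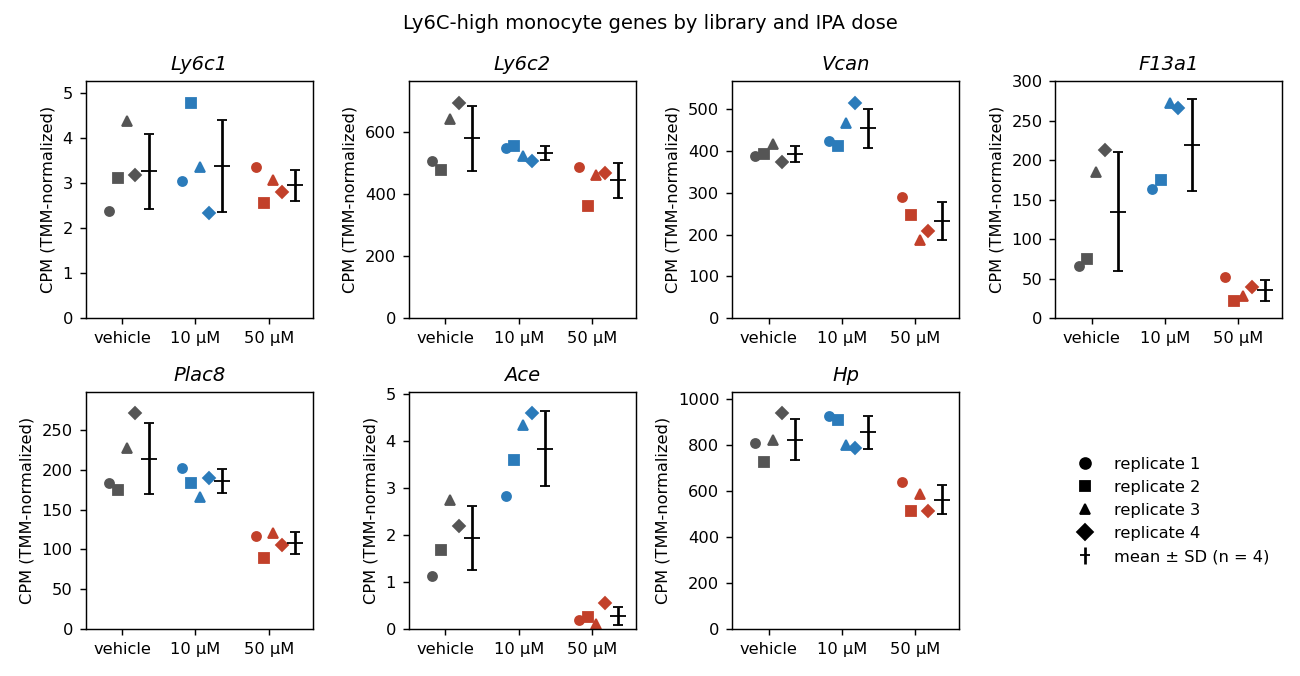
TMM-normalized CPM of each gene in every library (points, shape giving the replicate number) with the mean ± SD of 4 libraries beside each group; every vertical axis starts at 0. For Vcan, F13a1, Plac8, Ace and Hp all 50 µM points lie below all vehicle and 10 µM points, whereas the Ly6c1 groups overlap.

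Ly6c2 was read at 507, 478, 642 and 696 CPM in vehicle replicates 1 to 4. It was read at 551, 556, 524 and 508 CPM at 10 µM and at 489, 362, 462 and 469 CPM at 50 µM. Vehicle replicates 3 and 4 stood above all other libraries, the 50 µM library 1 lay inside the lower vehicle values, and all 50 µM libraries lay below all 10 µM libraries. Against vehicle, the fold change at 50 µM was -0.38 on the log2 scale (SE 0.13, 95% interval -0.65 to -0.11, edgeR adjusted p = 0.0658), which missed the threshold at a fitted level of 77.0% of vehicle. It passed with DESeq2 (adjusted p = 0.0239) and in edgeR with the replicate block (0.0235), no filter (0.00394) or all 12 libraries (0.027). It did not pass with limma-voom (0.0714), or in edgeR with DESeq2 size factors (0.0585) or at least 10 counts in every library (0.0608). Across the edgeR fits that left out 1 library the adjusted p ran from 0.0188 to 0.184, passing only without vehicle replicate 2. Against 10 µM, it was lower by a log2 fold change of -0.26 (SE 0.08, edgeR adjusted p = 0.0431), but the call was lost when any of 10 µM replicates 1, 2 and 3 or 50 µM replicates 2, 3 and 4 was left out, with adjusted p up to 0.118. At 10 µM against vehicle its log2 fold change was -0.12 (95% interval -0.36 to 0.12, edgeR adjusted p = 0.857).

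Ly6c1, its near copy, was a minor transcript, with 2.38, 3.12, 4.39 and 3.18 CPM in vehicle. It had 3.04, 4.79, 3.35 and 2.34 CPM at 10 µM and 3.37, 2.56, 3.06 and 2.81 CPM at 50 µM. The 3 groups overlapped, and no comparison passed: the log2 fold change was 0.05 (95% interval -0.50 to 0.60) at 10 µM and -0.14 (95% interval -0.61 to 0.33) at 50 µM against vehicle, with edgeR adjusted p of 0.984 and 0.73. Ly6c1 took 0.455% to 0.855% of the reads assigned to the pair, with 95% Wilson intervals from 0.349% to 1.04% that cover counting error only. This share was 0.562% ± 0.117 in vehicle, 0.624% ± 0.17 at 10 µM and 0.661% ± 0.0467 at 50 µM (SD, n = 4), and did not differ beyond the spread (two-sided exact permutation tests, p = 0.629 and p = 0.2 against vehicle and p = 0.714 between doses, where 0.0286 is the smallest p that 4 against 4 allows). With the counts of the pair added together, the fit gave the Ly6c2 result.

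Within the wider Ly6 family, whose members share the anchored three-finger fold, 11 of 25 genes in the table were tested. None was called at 10 µM. At 50 µM against vehicle 2 were lower and none higher: Ly6a, the stem cell antigen Sca-1, from 55.3 to 31.2 CPM (log2 fold change -0.82, edgeR adjusted p = 0.00725), and Ly6i, from 38.6 to 28.3 CPM (-0.44, adjusted p = 0.0231). Ly6e, the most abundant member at 970 CPM in vehicle, had 938 CPM at 50 µM and did not pass (adjusted p = 0.785). Ly6g, the neutrophil antigen, had 45.9 CPM in vehicle and 53.9 CPM at 50 µM (adjusted p = 0.406). The median of the 11 tested genes, the Ly6C pair included, was -0.04. Between doses, Ly6a (-1.22) and Ly6i (-0.55) were lower at 50 µM beside Ly6c2.

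Vcan encodes versican, a large proteoglycan of the provisional matrix that binds hyaluronan and is a standard transcript of classical monocytes. Its vehicle libraries were the tightest of the set, at 389, 392, 418 and 373 CPM. They compared with 423, 412, 466 and 516 CPM at 10 µM and 289, 248, 187 and 209 CPM at 50 µM. All 50 µM libraries lay below all others, and the 10 µM libraries overlapped the vehicle range only by 1 library. At 50 µM Vcan fell to 59.7% of the fitted vehicle level (log2 fold change -0.74, SE 0.11, edgeR adjusted p = 0.000818) and to 51.5% of the fitted 10 µM level (-0.96 on the log2 scale, adjusted p = 2.99e-05). At 10 µM its log2 fold change against vehicle was 0.21 (95% interval 0.04 to 0.38), with an unadjusted p of 0.0196 and an edgeR adjusted p of 0.414. Of 16 versican partners and processing genes, 5 were tested and only Cd44, the hyaluronan receptor, was called at 50 µM against vehicle, at 487 CPM against 620 CPM (-0.34 on the log2 scale, adjusted p = 0.00452). Stromal genes, another source of versican, had summed levels of 16.1 to 21.0 CPM in vehicle and 10.7 to 13.5 CPM at 50 µM. Of the 9 stromal markers, 4 were tested and Lepr was called lower (from 6.55 to 2.78 CPM, adjusted p = 0.00196), while Dcn was at or near 0 in every group. The part of stromal cells in the Vcan result was not tested.

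F13a1 encodes the catalytic A subunit of coagulation factor XIII, which cross-links fibrin and is stored inside monocytes, macrophages and platelets. It had 66.6, 75.1, 185 and 213 CPM in vehicle, 163, 175, 273 and 266 CPM at 10 µM, and 52.1, 21.7, 28.3 and 39.8 CPM at 50 µM. F13a1 was the most uneven of the 7 genes in vehicle. Vehicle replicates 1 and 2 stood far below replicates 3 and 4, with a coefficient of variation of 55.6%, and 10 µM replicates 1 and 2 stood below 3 and 4. The highest 50 µM library still lay below the lowest vehicle library. F13a1 fell at 50 µM to 26.3% of the fitted vehicle level (log2 fold change -1.92, SE 0.36, edgeR adjusted p = 0.00357) and to 16.2% of the fitted 10 µM level (log2 fold change -2.63, SE 0.23, adjusted p = 1.62e-06). At 10 µM its fitted level was 163% of vehicle, a log2 fold change of 0.70 whose 95% interval of -0.05 to 1.45 included 0 (edgeR adjusted p = 0.603).

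Among 16 coagulation and transglutaminase genes, of which 11 were tested, none was lower at 50 µM against vehicle. Plau, the urokinase gene, was the 1 gene called and was higher, from 107 to 140 CPM (log2 fold change 0.39, edgeR adjusted p = 0.0144). Tgm2, the tissue transglutaminase, had 232 CPM in vehicle and 225 CPM at 50 µM (adjusted p = 0.793), and F10, the most abundant of the list, had 466 and 462 CPM (adjusted p = 0.974). At 10 µM against vehicle F3, the tissue factor gene that starts coagulation, was higher, from 5.72 to 11.0 CPM (0.95 on the log2 scale, adjusted p = 0.025), a call that held in 3 of the 8 fits without 1 library. Megakaryocytes are another source of F13a1. The sum over 7 of their markers was 282 to 327 CPM in vehicle and 352 to 406 CPM at 50 µM, with Ppbp and Pf4 called higher among 6 tested, none called lower, and Gp1bb at 0 in every library. The part of megakaryocytes in the F13a1 result was not tested.

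Plac8 encodes a small intracellular protein that is abundant in Ly6C-high monocytes, granulocyte-monocyte progenitors and plasmacytoid dendritic cells. It had 184, 174, 227 and 271 CPM in vehicle and 202, 184, 166 and 190 CPM at 10 µM. At 50 µM it had 117, 88.8, 120 and 106 CPM, below every library of the other groups. Plac8 fell at 50 µM to 50.7% of the fitted vehicle level (log2 fold change -0.98, SE 0.14, edgeR adjusted p = 0.000458) and to 58.4% of the fitted 10 µM level (log2 fold change -0.78, SE 0.09, adjusted p = 3.13e-05). At 10 µM the log2 fold change was -0.21 (95% interval -0.48 to 0.07, edgeR adjusted p = 0.724).

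Progenitors are another source of Plac8. The summed level of 8 granulocyte and monocyte progenitor markers was 1690 to 2420 CPM in vehicle, 1610 to 1790 CPM at 10 µM and 847 to 1190 CPM at 50 µM, so the 50 µM libraries lay below all others. Against vehicle 6 of the 8 were lower at 50 µM and 1, Cd34, was higher; Elane, the neutrophil elastase gene, fell from 343 to 140 CPM (log2 fold change -1.29, edgeR adjusted p = 0.000355) and Ms4a3, a marker of committed granulocyte-monocyte progenitors, from 308 to 139 CPM (-1.14, adjusted p = 3.3e-05). Plasmacytoid dendritic cell genes summed to 71.1 to 84.4 CPM in vehicle and 92.4 to 101 CPM at 50 µM, with 2 of 5 tested genes higher and none lower. The part of progenitors in the Plac8 result was not tested.

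Ace encodes the angiotensin-converting enzyme, a membrane peptidase that also trims peptides for presentation in myeloid cells. It was the scarcest of the 7, with 30, 45, 61 and 55 counts in vehicle, 78, 74, 115 and 100 counts at 10 µM, and 4, 7, 2 and 13 counts at 50 µM. In normalized terms these were 1.13, 1.67, 2.73 and 2.19 CPM in vehicle, 2.83, 3.58, 4.33 and 4.58 CPM at 10 µM, and 0.195, 0.256, 0.0971 and 0.546 CPM at 50 µM. The groups did not overlap in any comparison, and 10 µM stood highest. Between 10 µM and vehicle, 6.13% of all tested genes had groups that did not overlap. At 50 µM Ace fell to 14.8% of the fitted vehicle level (log2 fold change -2.76, SE 0.48, edgeR adjusted p = 0.00196) and to 7.47% of the fitted 10 µM level (log2 fold change -3.74, SE 0.37, adjusted p = 6.21e-06), the largest changes among the 7 genes in both comparisons. With so few counts at 50 µM the size of the change is known only within its 95% interval, -3.81 to -1.75 against vehicle.

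At 10 µM Ace had 199% of the fitted vehicle level, a log2 fold change of 0.99 (SE 0.27, 95% interval 0.40 to 1.59). The unadjusted p was 0.00357 and the edgeR adjusted p was 0.207, so it was not called, while DESeq2 called it (adjusted p = 0.0336). Over the edgeR fits without 1 library the adjusted p ran from 0.14 to 0.459. Of 14 other angiotensin peptidases and receptors, 4 were tested and 1 was called at 50 µM against vehicle: Anpep, an aminopeptidase that cleaves angiotensin III, rose from 149 to 224 CPM (0.60 on the log2 scale, adjusted p = 0.00194). Endothelial genes, another source of Ace and of Ly6c1, summed to 46.2 to 61.9 CPM in vehicle, 64.0 to 77.3 CPM at 10 µM and 47.3 to 59.5 CPM at 50 µM, so the sum, like Ace, was highest at 10 µM. Most of this sum was the single gene Pecam1, with means of 45.8, 59.4 and 44.2 CPM in the same order. Cdh5 had means of only 0.553, 0.789 and 0.362 CPM. None of 5 tested genes was called against vehicle, Pecam1 was lower at 50 µM than at 10 µM (-0.42, edgeR adjusted p = 0.0026), and Cldn5 was at 0 in every library. The part of endothelial cells in the Ace result was not tested.

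Hp encodes haptoglobin, which captures free haemoglobin for uptake through the receptor CD163 and is also stored in granules of neutrophils. It was the most abundant of the 7 genes, with 807, 724, 822 and 937 CPM in vehicle and 927, 907, 798 and 787 CPM at 10 µM. At 50 µM it had 640, 511, 585 and 512 CPM, below all libraries of the other groups. Hp fell at 50 µM to 68.6% of the fitted vehicle level (log2 fold change -0.54, SE 0.1, edgeR adjusted p = 0.00238) and to 65.9% of the fitted 10 µM level (log2 fold change -0.60, SE 0.08, adjusted p = 0.000124), the smallest change among the 5 genes called against vehicle. At 10 µM the log2 fold change was 0.06 (95% interval -0.13 to 0.24, edgeR adjusted p = 0.922).

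The genes that handle haemoglobin, haem and iron downstream of haptoglobin were called in both directions. Of 7 tested, 3 were higher and 2 lower at 50 µM against vehicle. At 10 µM against vehicle the 1 call was Hmox1, the haem oxygenase gene, which rose from 186 to 278 CPM (log2 fold change 0.58, edgeR adjusted p = 0.046, held in 1 of the 8 fits without 1 library) and was lower at 50 µM than at 10 µM (-0.58, adjusted p = 2.9e-05). At 50 µM against vehicle, Cd163 fell from 2.99 to 1.25 CPM (log2 fold change -1.25, edgeR adjusted p = 0.00371), as did the iron exporter gene Slc40a1 from 67.6 to 46.9 CPM (-0.52, adjusted p = 0.0039). The haem transporter gene Slc48a1 rose from 168 to 230 CPM (0.46, adjusted p = 0.00195), and the ferritin genes Fth1 and Ftl1 each rose by a log2 fold change of 0.38 (adjusted p = 0.0132 and 0.0142). Among other acute phase genes, 10 tested, 5 were lower and 2 higher: Saa3, a serum amyloid made by macrophages, fell from 166 to 64.3 CPM (-1.37, adjusted p = 0.000165), Socs3 fell from 163 to 104 CPM (-0.64, adjusted p = 0.000103), and Cp, the ceruloplasmin gene, rose from 2.55 to 8.36 CPM (1.72, adjusted p = 1e-05).

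Neutrophils are another source of Hp. The sum over 12 neutrophil markers was 22400 to 31000 CPM in vehicle, 21100 to 24100 CPM at 10 µM and 16700 to 22400 CPM at 50 µM. Against vehicle 6 of 12 were lower at 50 µM and 1, Mmp9, was higher. Ltf, the lactoferrin gene of secondary granules, fell from 3950 to 2450 CPM (log2 fold change -0.68, edgeR adjusted p = 0.000335) and Cxcr2 fell from 131 to 75.4 CPM (-0.79, adjusted p = 0.000605), while S100a8 and S100a9 did not pass (adjusted p = 0.114 and 0.113). The part of neutrophils in the Hp result was not tested.

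**Figure D3:**
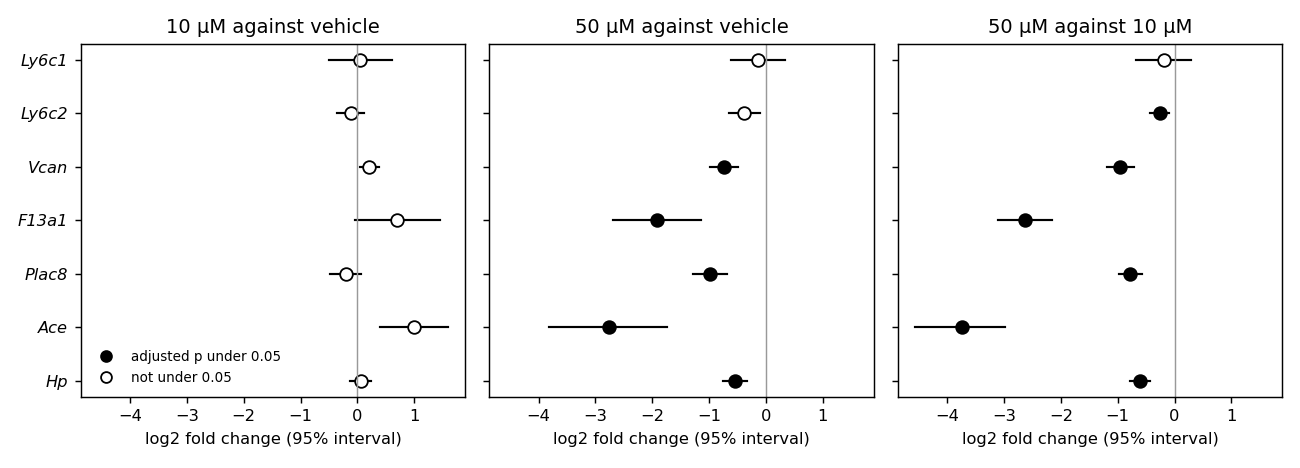
Log2 fold change of each gene in the 3 comparisons with its 95% interval from edgeR; filled points have an adjusted p under 0.05. No point is filled at 10 µM against vehicle, 5 are filled at 50 µM against vehicle and 6 at 50 µM against 10 µM, with Ace and F13a1 farthest from 0 in both.

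The calls of Vcan, F13a1, Plac8, Ace and Hp in both comparisons of 50 µM passed in each of the 8 fits that left out 1 library. At 10 µM against vehicle, Ace, F13a1, Vcan, Hp and Ly6c1 had fold changes above 0, none of which passed. The vehicle libraries themselves were uneven in the set, since replicates 1 and 2 lay below replicates 3 and 4 for every gene except Vcan. The progenitor marker sum did likewise, at 1750 and 1690 CPM in replicates 1 and 2 and 2120 and 2420 CPM in replicates 3 and 4, and so did the neutrophil sum, at 22400 and 23200 CPM against 27800 and 31000 CPM. The same division of the replicate numbers appeared in part in the IPA groups. Replicates 1 and 2 lay below 3 and 4 at 10 µM for Vcan, F13a1 and Ace, but above them for Ly6c2 and Hp, and at 50 µM above them for Vcan. The neutrophil sum was 23100 and 21100 CPM in 10 µM replicates 1 and 2 and 23500 and 24100 CPM in 3 and 4, and at 50 µM 18700 and 16700 CPM in 1 and 2 and 22400 and 20500 CPM in 3 and 4. The sum of T and NK cell markers was likewise lower in replicates 1 and 2 of all 3 groups, at 9.31 to 12.9 CPM against 14.7 to 20.3 CPM. The labels name no batch, and what these numbers share was not tested.

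Over the 12 libraries, log2 CPM of the genes was correlated to differing degrees, with the 3 dose groups and the library composition common to all points. Pearson's r was highest for Plac8 with Hp (0.934), F13a1 with Ace (0.929) and Vcan with Ace (0.912), and Ly6c2 came closest to Plac8 (0.895). Ly6c1 reached at most 0.502, with Ly6c2, at counts of 51 to 99 per library. Among the 10196 tested genes that averaged 5 CPM or more, the most alike to F13a1 were Nos2 (r = 0.989), the inducible nitric oxide synthase gene, Gja5 (0.978) and Asgr2 (0.974). The most alike to Plac8 were the granule protease gene Prtn3 (0.981), Ms4a3 (0.978) and Agpat2 (0.975). For Hp they were Slc16a1 (0.987), a lactate transporter gene, Mat2b (0.98) and Rab32 (0.979), for Ace Prune2 (0.979), Dab2 (0.976) and Stk24 (0.965), and for Vcan Chic2 (0.974), Sh3tc1 (0.971) and E2f7 (0.962). Ly6c2 was nearest to Slc27a4 (0.941), Glud1 (0.932) and Arl6ip6 (0.932), and Ly6c1 only to Cops2 (0.796), Rhoh (0.755) and Pcnx4 (0.754). These values describe 12 libraries and were not tested.

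Other genes of Ly6C-high monocytes were called in both directions. Of 15 tested, 4 were lower and 1 higher at 50 µM against vehicle, and the list median was -0.03. The chemokine receptor gene Ccr2, which takes these monocytes out of the marrow, fell from 347 to 204 CPM (log2 fold change -0.76, edgeR adjusted p = 0.00153), Ms4a6c fell from 10.7 to 4.50 CPM (-1.24, adjusted p = 8.5e-05), S100a4 from 1.19 to 0.317 CPM (-1.89, adjusted p = 0.00734) and the growth factor receptor gene Csf1r from 939 to 739 CPM (-0.34, adjusted p = 0.00769). S100a4 was scarce, at 0.243 to 0.391 CPM in the 50 µM libraries, so the size of its change is uncertain. Lyz2, the lysozyme gene of myeloid cells, rose from 5310 to 6920 CPM (0.39, adjusted p = 0.0102). Thbs1, which encodes thrombospondin, had 4770 CPM in vehicle and 5020 CPM at 50 µM (adjusted p = 0.536). Against 10 µM none was higher and 6 were lower at 50 µM, namely Ms4a6c, S100a4, Csf1r, Fn1 (log2 fold change -0.59), Cd14 (-0.32) and Ccr2, which fell from 505 to 204 CPM (-1.31, adjusted p = 7.21e-09). At 10 µM against vehicle the fibronectin gene Fn1 rose from 1450 to 2550 CPM (0.82, adjusted p = 0.0102) and Chil3 fell from 5970 to 4750 CPM (-0.33, adjusted p = 0.0394), and these calls held in 6 and 1 of the 8 fits without 1 library.

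Ly6C-low monocyte genes were mixed. Of 13 tested, none was called at 10 µM, and at 50 µM against vehicle 2 were higher and 3 lower with a median of 0.17. Adgre4 rose from 23.0 to 44.2 CPM (log2 fold change 0.95, edgeR adjusted p = 0.0218) and the fatty acid binding protein gene Fabp4 from 1.38 to 3.98 CPM (1.53, adjusted p = 0.00509). The fractalkine receptor gene Cx3cr1 fell from 8.87 to 4.04 CPM (-1.13, adjusted p = 0.000296), Ear2 from 53.2 to 30.2 CPM (-0.81, adjusted p = 0.000933) and Spn, which encodes CD43, from 352 to 268 CPM (-0.38, adjusted p = 0.00229). Nr4a1, the nuclear receptor that Ly6C-low monocytes depend on, had 14.0 CPM in vehicle and 17.6 CPM at 50 µM and did not pass (adjusted p = 0.0848). Between doses, Nr4a1 (log2 fold change 0.43) and Adgre4 (1.1) were higher at 50 µM and Cx3cr1 (-1.1) and Ear2 (-0.79) were lower.

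Among 11 transcription factors of monocyte fate, 2 were higher and 3 lower at 50 µM against vehicle. Klf4, a factor that monocytes need to form, fell from 35.2 to 23.2 CPM (log2 fold change -0.59, edgeR adjusted p = 0.00203), Myb, a progenitor factor, from 54.3 to 36.1 CPM (-0.58, adjusted p = 0.00176) and Gfi1, a granulocyte factor, from 41.5 to 28.6 CPM (-0.53, adjusted p = 0.0213). Egr1 rose from 160 to 215 CPM (0.44, adjusted p = 0.00777) and Irf8 from 86.6 to 114 CPM (0.40, adjusted p = 0.00142). None of the 11 was called at 10 µM. Between doses, Irf8 (0.29), Egr1 (0.66) and Nr4a1 were higher at 50 µM and Klf4 (-0.90) was lower. Spi1, which encodes PU.1, had 476 CPM in vehicle and 434 CPM at 50 µM and did not pass (adjusted p = 0.273).

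**Figure D4:**
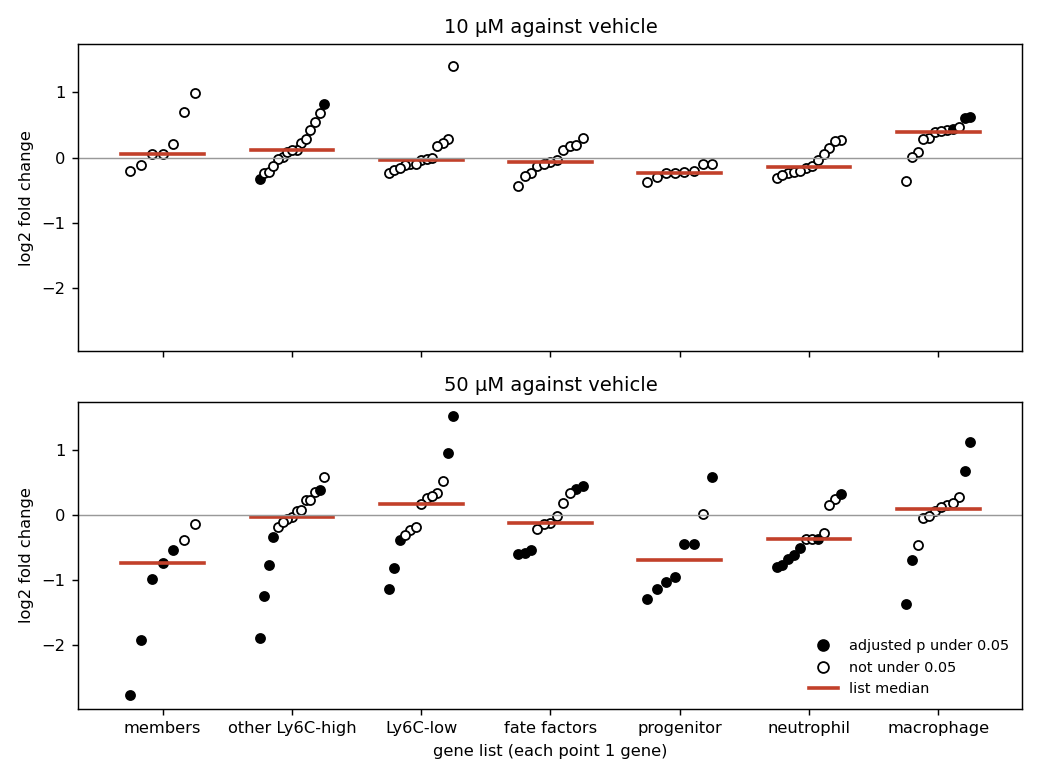
Log2 fold change of each tested gene in 7 lists at 10 µM (top) and 50 µM (bottom) against vehicle; each point is 1 gene, filled where the adjusted p is under 0.05, and the red bar is the list median. At 50 µM the median of the 7 genes is -0.74 and that of the progenitor markers -0.70, while other Ly6C-high genes (-0.03), Ly6C-low genes (0.17) and macrophage markers (0.09) lie near 0.

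Macrophage markers were higher in sum in both IPA groups. Their summed level was 1870 to 2250 CPM in vehicle, 2610 to 3090 CPM at 10 µM and 3070 to 3280 CPM at 50 µM, a sum led by Gpnmb, which rose from 788 to 1210 CPM at 10 µM (log2 fold change 0.61, edgeR adjusted p = 0.0385) and to 1710 CPM at 50 µM (1.12, adjusted p = 4e-06). Of the 12 markers Gpnmb, Mrc1 and C1qb were higher and none lower at 10 µM, in calls that held in 1, 2 and 2 of the 8 fits without 1 library, and 2 were higher and 2 lower at 50 µM against vehicle. Mrc1, the mannose receptor gene, rose at 10 µM from 153 to 235 CPM (0.62, adjusted p = 0.0375) and fell at 50 µM to 94.0 CPM (-0.69, adjusted p = 0.00232). Adgre1, which encodes F4/80, rose at 50 µM from 203 to 324 CPM (0.68, adjusted p = 7.5e-05), and Apoe fell from 19.3 to 7.42 CPM (-1.37, adjusted p = 0.00339).

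Markers of other cell types were read at differing levels. Erythroid markers summed to at most 2.54 CPM and markers of T and NK cells to at most 20.3 CPM in any library. B cell markers summed to 52.7 to 70.5 CPM in vehicle and 88.2 to 130 CPM at 50 µM, with 6 of 8 higher. Conventional dendritic cell markers summed to 3590 to 4460 CPM in vehicle and 3290 to 3840 CPM at 50 µM, with 4 higher and 1 lower of 10. Basophil and mast cell markers summed to 326 to 397 CPM in vehicle and 365 to 473 CPM at 50 µM, with 1 higher of 6 tested, and eosinophil markers to 1010 to 1250 CPM and 796 to 1070 CPM, with 1 higher of 5. The part of any of these cells in the results of the 7 genes was not tested.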

How the data were processed

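RNA was taken from bone marrow cultures and sequenced as stranded mRNA libraries, 4 for each of vehicle, 10 µM IPA and 50 µM IPA. The authors trimmed the reads, aligned them to mm10 with HISAT2 2.2.1 and assigned them to Ensembl genes with featureCounts 2.0.1, and deposited raw read counts for 54532 genes; the tool versions come from the submitters' processing notes, and the strand setting of the counting is not given in the sources used here. Groups were taken from the labels. The deposited counts were scaled by TMM and tested with edgeR 4.0.16 (R 4.3.3) by quasi-likelihood, 8 libraries per comparison, on genes above 0.5 CPM in 2 or more of 12 libraries, with Benjamini-Hochberg adjustment over 14894 genes and a threshold of 0.05. CPM were computed on counts of tested genes, and correlations on log2 CPM with a prior count of 2. Levels of the 7 genes given as a percentage of another group come from the fitted fold changes and can differ slightly from ratios of mean CPM. The tests were checked on simulated counts. Exon lengths, positions and coding sequences came from GENCODE M21 (GRCm38) and promoters from RefSeq. The 7 genes and all gene lists were chosen with earlier results of these data known. All 7 genes are named. Of the lists of other Ly6C-high, Ly6C-low, transcription factor and Ly6 genes every called gene is named, and of other lists at most 4 called genes by fold change and 4 by level. Ly6g, Cd34, Mmp9, Cldn5, Gp1bb, Dcn and Gm4117 fall outside this rule and were named after their values were seen. Alternatives were DESeq2 1.42.0, limma-voom 3.58.1, other size factors and filters, a fit of all 12 libraries, a replicate block, single libraries left out, exact permutation tests, and Ly6c1 with Ly6c2 added. A further gene chosen for the transcription factor list was taken out of it and is not reported here.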

Additional observations from a re-analysis of the deposited data

How the results depend on the processing

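For the 7 genes, 319 of the fold changes recomputed under other settings kept their direction and their side of the threshold, 8 passed it anew, 7 lost it and 6 changed sign. These include 1 pass and 1 change of sign entered for Ly6c1 that are values of the summed Ly6C pair, and 1 pass, for Ace at 10 µM, that is an unadjusted exact permutation p. The calls of Vcan, F13a1, Plac8, Ace and Hp at 50 µM held in every setting that could be run, except that Ace could not be tested where at least 10 counts were required in every library. For the exact permutation tests this means an unadjusted p of 0.0286, the smallest that 4 against 4 allows. It shows only that the groups did not overlap, and none of the permutation p-values counted here was adjusted. Against vehicle at 10 µM, DESeq2 called 1 of the 7 genes, Ace. The sign changes all concerned values that did not pass. When 1 library was left out, Ly6c1 ran from -0.16 to 0.22 at 10 µM against vehicle, from -0.27 to 0.03 at 50 µM against vehicle and from -0.33 to 0.02 between doses, and Hp from -0.00 to 0.12 at 10 µM against vehicle. The summed Ly6C pair, nearly all Ly6c2, had -0.12 at 10 µM against vehicle, which is no change of Ly6c1 itself. Ly6c2 at 50 µM against vehicle passed with DESeq2 (adjusted p = 0.0239), with no filter (0.00394), with all 12 libraries in the edgeR fit (0.027) and with the replicate block (0.0235), and its call against 10 µM was lost with all 12 libraries (0.138). The cause was not tested. The count of genes called at 10 µM against vehicle, 61, became 250 with DESeq2, 150 with no filter, 118 with all 12 libraries and 3 with the replicate block, and 4 to 122 when 1 library was left out. The other comparisons called 1248 to 2689 and 1604 to 2269 genes when 1 library was left out, with 1830 and 2200 under the replicate block. Over all genes, libraries with the same replicate number had deviations correlated at r from -0.242 to 0.142, which did not meet the bar for treating the numbers as pairs, and the marker sums that divide replicates 1 and 2 from 3 and 4 were not tested. Leaving out 1 library gave 0 of the 7 genes called at 10 µM and 5 to 6 in both comparisons of 50 µM. Depth limits Ace at 50 µM (2 to 13 counts) and Ly6c1 (51 to 99 counts).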
